A study of Mus musculus with 22 samples.

Results

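The comparison across lights on set 4 liver arrays from ZT2 against 4 from ZT22, out of 22 in all. ZT is zeitgeber time, the hours since lights on in a day of 12 h light and 12 h dark, so ZT22 fell near the end of the dark, active phase and ZT2 early in the light, when mice settle to rest. All mice were males of 3 to 8 months that carry a global knockout of adiponectin, a hormone secreted by fat cells, on a C57BL/6J background. They were group-housed with chow and water always available, and every group shares the knockout, so the comparison describes a time of day in this genotype and not the loss of the hormone. Wild-type livers were not analysed here. Each Clariom S array was taken as the liver of 1 mouse, and 22206 features, 19505 of them distinct named genes, were measured on a log2 scale, on which a step of 1 is a doubling. The 4 arrays of a time carry letters, such as ZT22a. No label ties an array to a particular animal, so p-values measure only the spread between these samples, which may be in part technical.

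As background, the hepatic clock is a feedback loop. The activators BMAL1 (gene Arntl) and CLOCK bind E-box sequences and switch on the Per and Cry repressor genes, the genes Nr1d1 and Nr1d2 of the nuclear receptors REV-ERB alpha and beta, and many outputs. PER and CRY proteins hold the activators back during the night, and REV-ERB proteins repress Arntl and Cry1 during the day. Feeding in mice falls mostly in the dark, so the turn from night to day also moves the liver from a fed state, with insulin signalling and lipid synthesis, toward a fasting state. Whole liver was measured, so fewer cells of a type and less RNA per cell cannot be told apart.

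The arrays were alike in their bulk. Across the 8 arrays the median ranged from 5.28 to 5.36, and correlations between pairs ran from 0.983 to 0.993. Adipoq, the targeted gene, had means of 3.53 at ZT2 and 3.99 at ZT22, close to the lower quartile of the arrays (3.69 to 3.87), where a level cannot be told from background. Hepatocyte markers had nearly equal summed levels at both times, from 22.25 to 22.29 at ZT2 and from 22.24 to 22.29 at ZT22 (log2 of the sum of 9 markers), and 0 of 9 were called. The sum rests on the brightest, such as Alb at 19.8 at both times, near the highest value of any array (19.87), and says little about dimmer markers. For 2 of the 9 the arrays of the 2 times did not overlap (all features 5.54%). Hnf4a was lower at ZT2 (-0.48), the 1 with an unadjusted p under 0.05 by limma, and Fgb was higher (0.27). In none of the other 9 marker lists was any member called (limma, adjusted p under 0.05), while 3 of 11 Kupffer cell markers had an unadjusted p under 0.05, all higher at ZT2 (all features 4.57%). Of 12 sinusoidal endothelial markers 3 (Oit3, Gpr182 and Ehd3) had one, all lower at ZT2 (all features 5.42%), and summed levels were from 13.06 to 13.72 at ZT2 and from 13.56 to 13.88 at ZT22. The part of these cells in the results was not tested. All 11 Kupffer cell markers had higher means at ZT2 (all features 11324 of 22206), with summed levels from 11.14 to 11.64 against 10.72 to 11.27 at ZT22. Among the named genes array ZT22a stood furthest apart in Tff3, a trefoil factor gene of mucous and biliary epithelium. It was also apart in other genes. Hsd3b5, a steroid dehydrogenase gene, read 12.63 on ZT22a and 15.65 to 16.45 on the other ZT22 arrays. Nr0b2, a nuclear receptor gene, read 9.57 on ZT22a and 11.29 to 12.10 on the others. Usp2, Ahcy and Mat1a stood apart by less. Tff3 read 11.42 on ZT22a and between 2.5 and 4.64 on the other 7 arrays. Some counts of calls are given with and without ZT22a. Unless a fit without ZT22a is named, a count includes that array.

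From ZT22 to ZT2 29 features changed (limma, adjusted p under 0.05), which is 0.131% of those tested. Of these, 5 rose (0.0225%) and 24 fell (0.108%). The 5 that rose were the REV-ERB genes Nr1d1 and Nr1d2, Slc25a47, Oga and Ccdc152. The genes that fell included the clock repressors Per2 and Cry1, the clock-regulated kinase gene Wee1, the glycogen-targeting phosphatase subunits Ppp1r3b and Ppp1r3c, and the bile acid enzymes Cyp7a1 and Cyp39a1. Of the 29, 27 were named genes, 1 was a predicted gene (Gm11437) and 1 had no gene symbol. In all 29 the ZT2 and ZT22 arrays did not overlap, which holds for 5.54% of all features (2.47% with ZT2 above and 3.07% with ZT2 below). An unadjusted p under 0.05 was found for 2219 features (9.99%), 1015 higher and 1204 lower at ZT2. Most transcripts differed little: the median difference over all features was 0.008, and the 95% interval lay within 1 log2 unit of no change for 89.9% of features.

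The count of 29 was sensitive to single arrays. It was 15 without ZT2a and 16 without ZT22d, and it was 25 without ZT22a. The count that rose was 7 without ZT22a, 8 without ZT2c, 11 without ZT2d and 3 without ZT22b, against 5 with all arrays. When the 5 arrays with high Tff3 were left out of the fit, ZT22a among them, 44 features changed, 15 of them upward. Of the 27 named genes, 12 were called in each of the 8 fits that left out one of the compared arrays: Nr1d1, Nr1d2, Ccdc152, Cyp7a1, Ppp1r3b, Hspb1, Per2, Ppp1r3c, Cry1, Acot3, Wee1 and Tspan4.

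**Figure D1:**
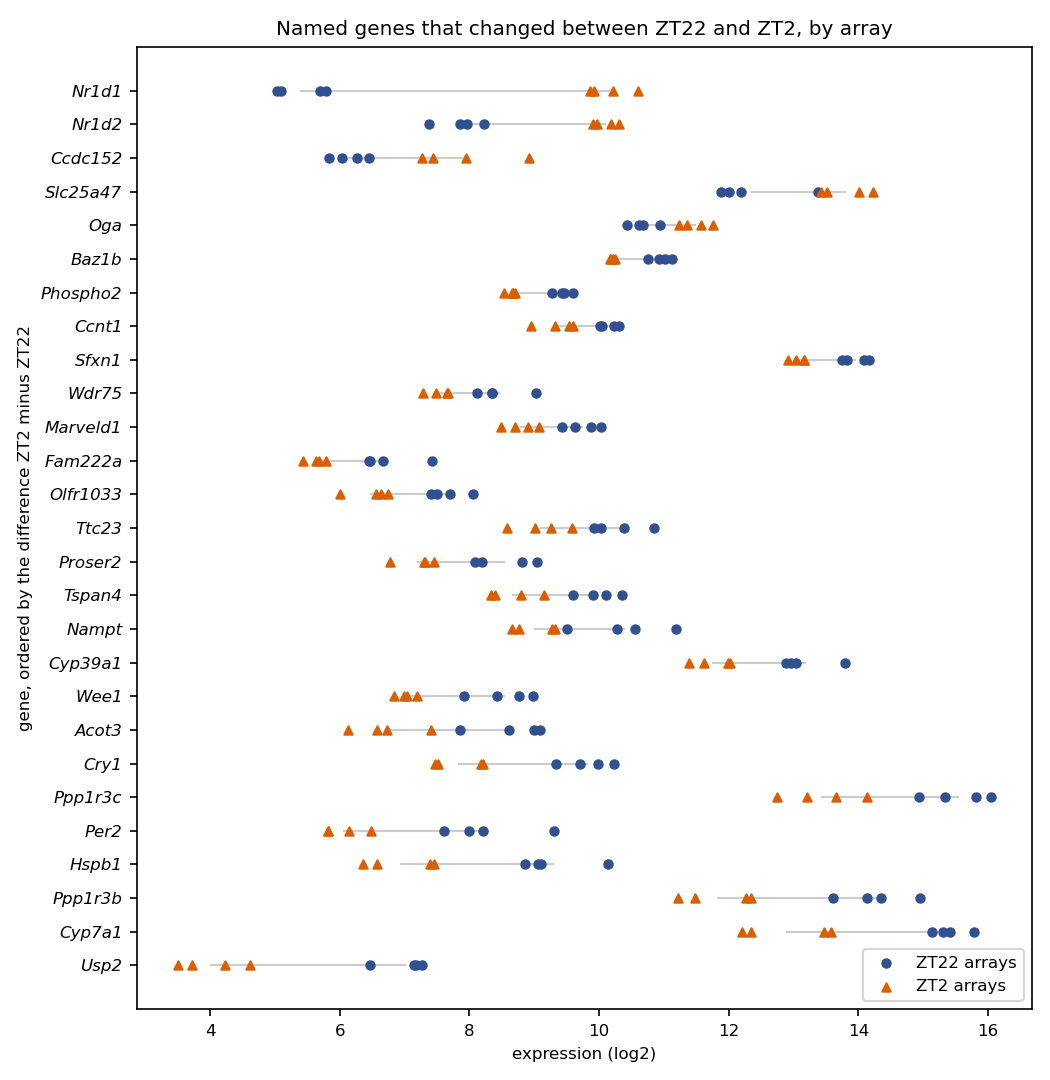
Expression (log2) of the 27 named genes that changed, on each of the 4 ZT22 arrays (blue circles) and the 4 ZT2 arrays (orange triangles), with a grey line joining the means and the genes ordered by their difference. For Nr1d1 the ZT22 arrays lie between 5.03 and 5.78 and the ZT2 arrays between 9.86 and 10.60, while for Slc25a47 array ZT22d (13.37) lies beside the lowest ZT2 array (13.43).

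Nr1d1 showed the largest change in the liver. Its 4 ZT22 arrays read 5.03, 5.09, 5.69 and 5.78, and its 4 ZT2 arrays read 10.22, 9.86, 9.92 and 10.60. The groups were far apart, with every ZT2 array above 9 and every ZT22 array below 6. Nr1d1 rose by 4.75 ± 0.30 (log2 difference ± SE, n = 4 and 4), or 27.0-fold, with limma's adjusted p = 5.42e-10. Nr1d1 overlaps Thra on the opposite strand, and Thra, the thyroid hormone receptor alpha gene, differed by 0.052 (adjusted p = 0.96). The lowest mean of Nr1d1 among the 6 times was at ZT22 (5.40), and it was higher still at ZT6 (12.00) than at ZT2 (10.15).

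Nr1d2, the gene of the partner receptor REV-ERB beta, followed at a smaller size. The ZT22 arrays read 7.96, 7.37, 7.86 and 8.22 and the ZT2 arrays 10.30, 9.96, 9.90 and 10.19. Again no arrays overlapped, and Nr1d2 rose by 2.24 ± 0.22 (4.71-fold, adjusted p = 3.76e-06). Both REV-ERB genes rose over these 4 h from their lowest mean of the 6 times.

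Of the 8 Per, Cry, Ciart and Bhlhe repressor genes, Cry1 and Per2 fell. Cry1, which encodes a late-acting repressor of CLOCK and BMAL1, read 10.23, 9.98, 9.34 and 9.70 on the ZT22 arrays, the highest mean of its day (9.81). On the ZT2 arrays it read 7.47, 8.21, 8.18 and 7.52. Every ZT2 array lay over 1 log2 unit below the lowest ZT22 array, and Cry1 fell by 1.97 ± 0.21 (3.91-fold, adjusted p = 1.11e-05). Its mean was lower still at ZT6 (6.77).

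Per2, a partner of the CRY proteins, was already past its peak. Its mean went from 10.56 at ZT14 to 9.27 at ZT18 and 8.28 at ZT22. The ZT22 arrays read 8.21, 9.30, 7.61 and 7.99, with ZT22b the highest, and the ZT2 arrays read 6.14, 5.81, 5.82 and 6.48. Per2 fell by 2.22 ± 0.32 (4.64-fold, adjusted p = 0.000789) to its lowest mean of the 6 times (6.06).

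Of the 15 core clock genes listed, 14 were analysed here; 2 rose (Nr1d1 and Nr1d2) and 2 fell (Per2 and Cry1), against 0.131% called over all features. The median difference of the 14 was -0.49, against 0.008 over all features. These counts of 4 held under each alternative and each omission of a compared array. The activator Arntl read 10.62, 10.70, 10.53 and 10.36 at ZT22 and 10.01, 10.05, 10.77 and 10.10 at ZT2. Array ZT2c exceeded all ZT22 arrays and the other 3 were lower, and the difference was -0.32 with a 95% interval from -0.93 to 0.29 (adjusted p = 0.77). Clock differed by 0.085 ± 0.19 (adjusted p = 0.92), and the sign turned to -0.024 without ZT22a. The activator Npas2 (-0.36, adjusted p = 0.77) and the orphan receptor gene Rora, an activator of Arntl (-0.34, adjusted p = 0.60), were not called either.

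Several repressors of the loop were lower at ZT2 without passing the test. Per1 read 6.53, 5.55, 5.08 and 5.53 at ZT22 and 4.14, 4.43, 3.97 and 4.76 at ZT2, groups that did not overlap, with a difference of -1.35 and an adjusted p of 0.16. Per3 differed by -1.33 (adjusted p = 0.16), but array ZT22b at 5.73 lay inside the range of the ZT2 arrays (5.13 to 5.87). Bhlhe40, which encodes the E-box repressor DEC1, read 13.15, 12.57, 12.61 and 13.70 at ZT22 and 11.51, 12.08, 12.09 and 11.60 at ZT2, without overlap, a difference of -1.19 (adjusted p = 0.11). Cry2 differed by -0.61 (adjusted p = 0.26), Ciart, an inhibitor of CLOCK and BMAL1, by -0.66 (adjusted p = 0.47), and Bhlhe41 by -0.14 (adjusted p = 0.95). The Bhlhe41 value changed sign, to 0.081, when ZT2a was left out. The ZT2 means of Per1 (4.325) and Ciart (4.04) lie near the lower quartile of the arrays, so their differences are uncertain in size.

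**Figure D2:**
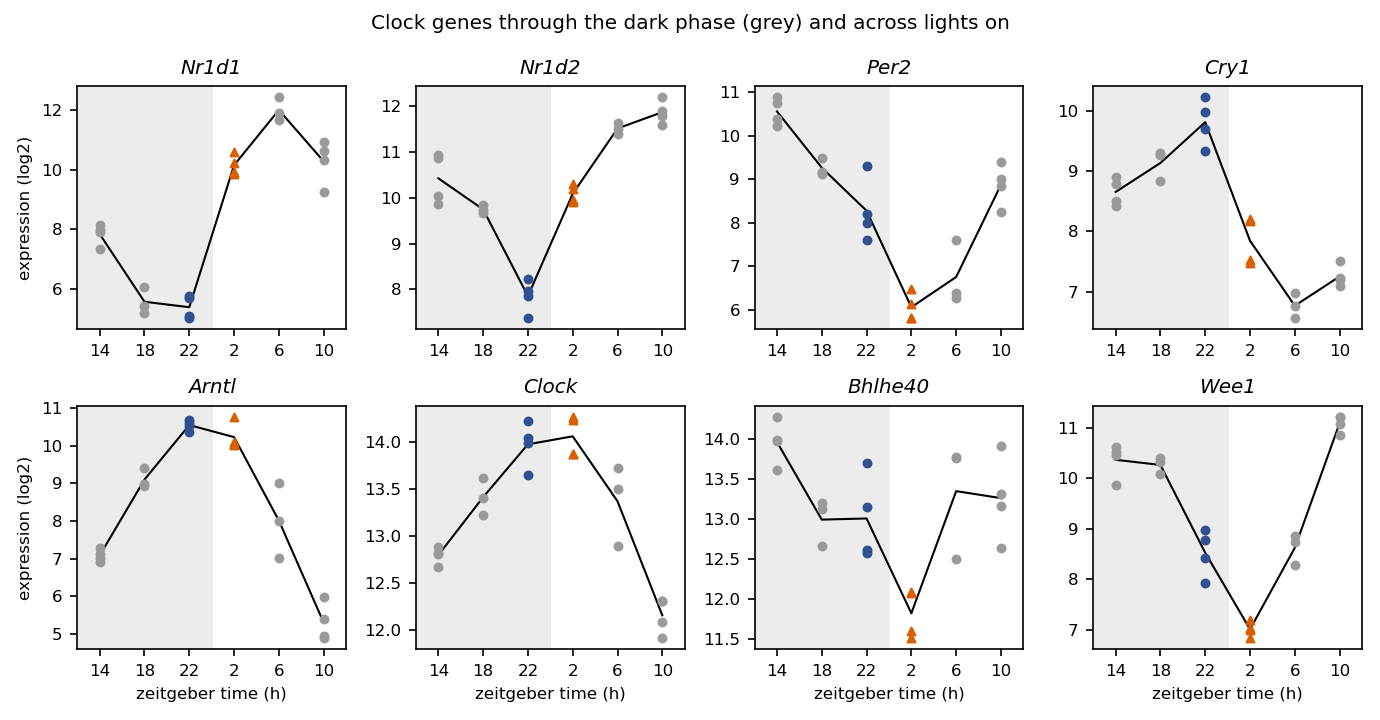
Expression (log2) of 8 clock genes against zeitgeber time (h), drawn from ZT14 through the dark phase (grey band) and lights on to ZT10; points are arrays (blue ZT22, orange triangles ZT2, grey the other times) and lines join the means. Between ZT22 and ZT2 Nr1d1 goes from 5.40 to 10.15 and Cry1 from 9.81 to 7.85, while Arntl (10.55 and 10.23) and Clock (13.98 and 14.06) stay near their highest means of the day.

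Wee1 encodes a kinase that delays entry into mitosis, and in liver it is a known E-box-driven output of the clock. It read 8.43, 7.92, 8.98 and 8.77 at ZT22 and 7.19, 6.99, 6.84 and 7.03 at ZT2. The ZT2 arrays were close together (SD 0.14), all of them under every ZT22 array. Wee1 fell by 1.51 ± 0.21 (2.85-fold, adjusted p = 0.000603), and it had also been lower at ZT22 (8.53) than at ZT18 (10.26). Usp2, the gene of a deubiquitinase that acts on clock proteins, read 6.47, 7.14, 7.17 and 7.27 at ZT22 and 3.50, 4.62, 4.23 and 3.72 at ZT2. It fell by 3.00 ± 0.52 (7.97-fold, adjusted p = 0.00998), but its ZT2 mean of 4.02 lies near the lower quartile of the arrays, so the size of that fall is uncertain; the call was lost without ZT2a (adjusted p = 0.059) or ZT22d (adjusted p = 0.052). Usp2 was the 1 called member of 9 clock protein kinase and ubiquitin ligase genes analysed (all features 0.131%). Csnk1d, the casein kinase gene of that group, differed by 0.29 (adjusted p = 0.65). Tspan4, a tetraspanin gene, read 10.36, 9.59, 9.90 and 10.11 at ZT22 and 8.39, 9.15, 8.80 and 8.33 at ZT2, and it fell by 1.32 ± 0.20 (2.5-fold, adjusted p = 0.00129).

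The promoter windows of 3 of these genes are printed because E-box and REV-ERB motifs are the letters through which the clock is known to act, and because Cry1 and Ppp1r3c, a glycogen gene described further on, fell while Nr1d2 rose. Each window runs 300 bases, 5′ to 3′ on the strand of the gene, from 250 before the RefSeq start site to 50 from it onward (RefSeq, assembly GRCm38.p6). Capitals mark CACGTG, the E-box, in Cry1 and Ppp1r3c, and AGGTCA, the short site bound by ROR and REV-ERB receptors, in Nr1d2. All 3 genes lie on the minus strand: Cry1 at chr10:85185005-85185304, Ppp1r3c at chr19:36736555-36736854 and Nr1d2 at chr14:18239057-18239356.
Cry1: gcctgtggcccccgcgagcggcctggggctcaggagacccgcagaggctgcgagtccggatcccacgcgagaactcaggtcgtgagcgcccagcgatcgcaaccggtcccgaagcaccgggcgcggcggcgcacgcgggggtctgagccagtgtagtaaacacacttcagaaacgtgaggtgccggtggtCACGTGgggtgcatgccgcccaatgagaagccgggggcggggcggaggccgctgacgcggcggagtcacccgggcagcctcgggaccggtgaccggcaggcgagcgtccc
Ppp1r3c: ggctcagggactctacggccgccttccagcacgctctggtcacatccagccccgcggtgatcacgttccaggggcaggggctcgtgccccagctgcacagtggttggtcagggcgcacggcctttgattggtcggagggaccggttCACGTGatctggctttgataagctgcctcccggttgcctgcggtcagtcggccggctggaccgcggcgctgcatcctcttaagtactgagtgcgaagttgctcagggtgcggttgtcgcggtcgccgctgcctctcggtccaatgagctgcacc
Nr1d2: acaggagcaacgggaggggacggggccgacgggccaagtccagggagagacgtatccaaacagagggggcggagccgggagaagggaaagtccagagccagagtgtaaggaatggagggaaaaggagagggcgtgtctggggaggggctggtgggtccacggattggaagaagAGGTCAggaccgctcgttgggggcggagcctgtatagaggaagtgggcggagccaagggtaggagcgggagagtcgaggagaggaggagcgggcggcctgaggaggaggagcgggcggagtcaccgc
The E-box begins 60 bases before the start site in Cry1 and 104 before it in Ppp1r3c, and the receptor site of Nr1d2 begins 77 before it.

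Over all changed genes the motifs were few. RefSeq windows were found for 20 of the 27 named genes, all 5 that rose and 15 that fell; none was found here for Cyp7a1, Ppp1r3b, Per2, Wee1, Cyp39a1, Ttc23 and Olfr1033. CACGTG, read on both strands, stood in 3 of the 15 windows of genes that fell (Cry1, Ppp1r3c and Tspan4) and in 0 of the 5 that rose, against 8.09% of the windows of 27025 genes. AGGTCA stood in 2 of 5 (Nr1d2 and Slc25a47) and in 3 of 15 (Acot3, Baz1b and Nampt), against 18.1% of all. The D-box (TTATGTAA or TTATGCAA; all genes 1.98%) was found in Baz1b, the cyclic AMP response element (TGACGTCA; 2.03%) in Phospho2, and the forkhead site (TGTTTAC; 4.05%) in Cry1. In Baz1b the D-box and AGGTCA begin 247 and 237 bases before the start and do not overlap. The window of Nr1d1, the gene of largest rise, held neither CACGTG nor AGGTCA. Of the clock genes not called, only Ciart and Arntl were looked up: Ciart held CACGTG and Arntl held AGGTCA. The windows of the other uncalled clock genes were not examined. These are letter matches in a short window and no measure of binding.

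Of the glycogen genes 2 fell, both by over 2 log2 units. Glycogen is stored through the night's feeding and broken down by day, and the Ppp1r3 genes encode subunits that bring protein phosphatase 1 to glycogen and so switch glycogen synthase on. Ppp1r3b, the main subunit of liver, read 13.60, 14.95, 14.13 and 14.35 at ZT22 and 11.48, 11.21, 12.35 and 12.27 at ZT2. Every ZT2 array lay over 1 log2 unit below the lowest at ZT22, and Ppp1r3b fell by 2.43 ± 0.31 (5.39-fold, adjusted p = 0.00017). Ppp1r3c read 15.33, 15.81, 14.93 and 16.05 at ZT22, its highest mean of the day (15.53), and 13.66, 13.21, 12.75 and 14.13 at ZT2. It fell by 2.09 ± 0.26 (4.27-fold, adjusted p = 0.000147). Both means stayed low afterward: Ppp1r3b was at 11.99 at ZT6, and Ppp1r3c went on down to 12.32 at ZT6 and 9.73 at ZT10. Among the 12 glycogen genes analysed these 2 were called, both lower (all features 0.131%), and the median of the 12 was -0.14. On ranks in place of values neither passed (adjusted p = 0.109 for Ppp1r3b and 0.319 for Ppp1r3c). The subunit genes Ppp1r3d (-0.12, adjusted p = 0.90) and Ppp1r3g (-0.025, adjusted p = 0.98) were not called. Phka2, a regulatory subunit of phosphorylase kinase, which promotes glycogen breakdown, differed by 0.40 (adjusted p = 0.50).

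Of the bile acid genes, Cyp7a1 fell. Cyp7a1, the rate-limiting enzyme of the classical pathway, read 15.78, 15.41, 15.14 and 15.31 at ZT22 and 12.20, 12.34, 13.47 and 13.57 at ZT2. The ZT2 arrays were more scattered (SD 0.73 against 0.27) but all lay well below ZT22. Cyp7a1 fell by 2.52 ± 0.37 (5.72-fold, adjusted p = 0.00125) to its lowest mean of the 6 times (12.90), and it was back at 14.85 at ZT6. Nr0b2 encodes SHP, a repressor of Cyp7a1. It read 9.57, 12.10, 11.33 and 11.29 at ZT22 and 13.05, 12.26, 12.05 and 12.91 at ZT2, a difference of 1.5 ± 0.48 that did not pass (adjusted p = 0.26), with ZT22b above the lowest ZT2 array. Without ZT22a the difference was 0.99 (adjusted p = 0.51). Cyp39a1, an oxysterol 7-alpha-hydroxylase, read 12.96, 13.03, 13.80 and 12.88 at ZT22 and 11.62, 12.02, 11.39 and 11.99 at ZT2. It fell by 1.41 ± 0.26 (2.66-fold, adjusted p = 0.0215) and lost the call without ZT2a, ZT2c or ZT22c (adjusted p from 0.073 to 0.081). Of the 20 genes in the bile acid list, which does not hold Cyp39a1, only Cyp7a1 was called (all features 0.131%). With unadjusted p-values 6 were higher and 2 lower, against 4.57% and 5.42% of all features, and the list's median was 0.25. Slco1b2, a bile acid and drug uptake transporter of hepatocytes, was higher on all 4 ZT2 arrays (15.91 to 16.32 against 14.97 to 15.56) by 0.72 (adjusted p = 0.33).

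The other genes that rose had smaller changes. Slc25a47 encodes a mitochondrial carrier of hepatocytes. It read 12.01, 11.88, 12.19 and 13.37 at ZT22 and 13.43, 13.51, 14.01 and 14.22 at ZT2, so that ZT22d lay just under the lowest ZT2 array, and it rose by 1.43 ± 0.26 (2.69-fold, adjusted p = 0.0187). Without ZT22a the difference was 1.31 with an adjusted p of 0.064, and the call was also lost without ZT2c, ZT2d, ZT22b or ZT22c. Oga, the enzyme that removes O-linked N-acetylglucosamine from proteins, read 10.94, 10.43, 10.68 and 10.62 at ZT22 and 11.35, 11.23, 11.57 and 11.76 at ZT2. It rose by 0.81 ± 0.17 (1.75-fold, adjusted p = 0.0448) and stayed called only without ZT2b or ZT22a among the 8 fits that left out one array. Ccdc152 read 5.84, 6.03, 6.26 and 6.45 at ZT22 and 7.95, 7.26, 8.92 and 7.44 at ZT2, a rise of 1.75 ± 0.28 (3.36-fold, adjusted p = 0.00344). It overlaps Selenop, the selenoprotein P gene, in the annotation, so its signal is uncertain; Selenop itself differed by -0.092 (adjusted p = 0.87) at a mean above 18 on both sides. Only Ccdc152 of the 5 had its highest mean of the 6 times at ZT2, and the other 4 had higher means at ZT6.

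Among the genes that fell outside the clock, Hspb1, a small heat shock protein gene, read 10.14, 8.85, 9.06 and 9.10 at ZT22 and 7.45, 7.39, 6.36 and 6.57 at ZT2. ZT22a was the highest, and all 4 ZT22 arrays exceeded all ZT2 arrays. Hspb1 fell by 2.35 ± 0.36 (5.08-fold, adjusted p = 0.00194). It was the 1 called member of 11 heat shock and cold-inducible genes (all features 0.131%), and 2 were called without the high-Tff3 arrays. Cirbp, the cold-inducible RNA-binding protein gene of that list, was on average 1.21 higher at ZT2 (adjusted p = 0.15). The co-chaperone gene Bag3 was 0.86 lower on average (difference -0.86, adjusted p = 0.32). Without the high-Tff3 arrays the Bag3 difference was -1.24 (adjusted p = 0.035).

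Nampt makes the rate-limiting enzyme of the NAD salvage pathway and is itself driven by the clock. It read 11.19, 9.51, 10.55 and 10.28 at ZT22 and 9.32, 9.27, 8.77 and 8.66 at ZT2, with ZT22b near the highest ZT2 array. Nampt fell by 1.38 ± 0.28 (2.60-fold, adjusted p = 0.0429), and it was called only without ZT22b among those 8 fits; without ZT22a its difference was -1.11 (adjusted p = 0.11). Of 16 NAD genes it was the 1 that passed (all features 0.131%). Afmid, an enzyme of the route from tryptophan to NAD, differed by -0.89 (adjusted p = 0.089), and Nmrk1, the nicotinamide riboside kinase gene, by -0.80 (adjusted p = 0.11; 0.037 without ZT22b). Acot3, a peroxisomal acyl-CoA thioesterase gene, read 8.61, 7.86, 9 and 9.09 at ZT22 and 6.73, 6.58, 6.13 and 7.41 at ZT2, and it fell by 1.93 ± 0.29 (3.80-fold, adjusted p = 0.00154). Acot3 has closely similar neighbours in its family, so its signal may be shared among them.

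The remaining 10 named genes that fell lie outside the rule by which genes were chosen and are named after their values were seen. They were Proser2 (-1.32), Ttc23 (-1.19), Olfr1033 (-1.18), Fam222a (-1.12), Marveld1 (-0.95), Wdr75 (-0.93), Sfxn1 (-0.89), Ccnt1 (-0.80), Phospho2 (-0.80) and Baz1b (-0.75), given as log2 differences, with adjusted p-values from 0.0133 for Proser2 to 0.0448 for Sfxn1 and Ccnt1. Sfxn1 encodes a mitochondrial serine transporter, Ccnt1 the cyclin of the elongation factor P-TEFb, Wdr75 a factor of ribosome assembly and Baz1b a chromatin remodelling subunit. Olfr1033 belongs to the large olfactory receptor family, whose members can share signal. Of these genes, 6 lost the call without ZT22a (Olfr1033, Wdr75, Sfxn1, Ccnt1, Phospho2 and Baz1b), and each of the 10 was lost in at least 3 of the 8 fits that left out one array. The predicted gene Gm11437, which overlaps Acaca in the annotation, fell by 1.60 (adjusted p = 0.0295), while Acaca, the gene of acetyl-CoA carboxylase, differed by -0.51 (adjusted p = 0.39).

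Set against the whole day, the genes that fell were of several kinds. Of the 24 features that fell, 14 had their lowest mean of the 6 times at ZT2, 12 had their highest at ZT22, and 4 had neither. For 12 of the 24 the mean was already lower at ZT22 than at ZT18, as for Wee1 and Per2, and for 7 it was lower again at ZT6, as for Cry1 and Ppp1r3c. Of the 5 that rose, 4 had their lowest mean at ZT22. These positions include the 2 times by which the features were chosen and are a description.

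**Figure D3:**
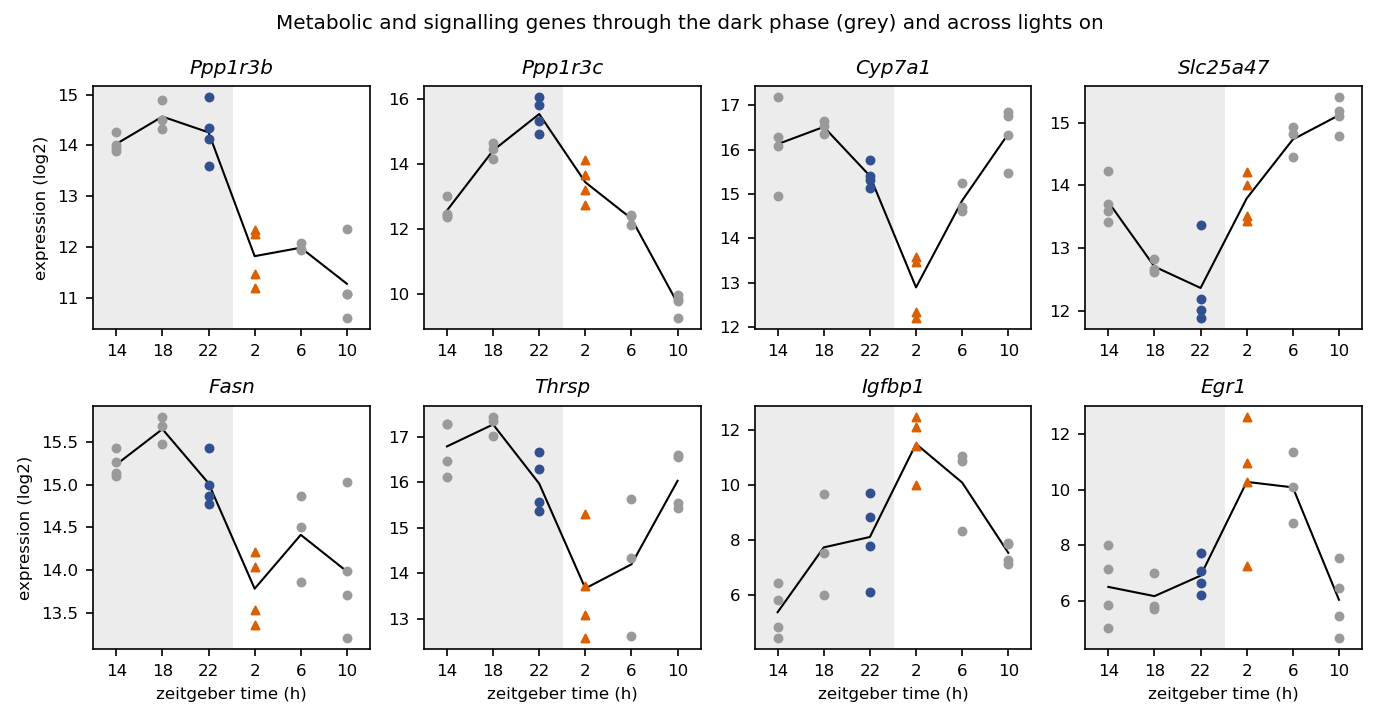
Expression (log2) of 8 metabolic and signalling genes against zeitgeber time (h), from ZT14 through the dark phase (grey band) and lights on to ZT10; points are arrays (blue ZT22, orange triangles ZT2, grey the other times) and lines join the means. Ppp1r3b, Ppp1r3c and Cyp7a1 fell and Slc25a47 rose; Fasn, Thrsp, Igfbp1 and Egr1 did not pass the test, and array ZT2d (7.26) lies within the ZT22 range for Egr1.

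Lipid synthesis genes did not pass the test one by one, while 16 of 19 members of the fatty acid list had lower means at ZT2 (all features 10808 of 22206). Of these 19 genes analysed for fatty acid synthesis under SREBP1, the insulin-driven regulator of lipogenesis, 0 were called by limma. An unadjusted p under 0.05 was found for 8, all lower (all features 5.42%), and for 8 the ZT2 arrays all lay below the ZT22 arrays (all features 3.07%). The list's median was -0.51, against 0.008 for all features. Thrsp, a lipogenic cofactor gene, read 15.36, 16.66, 15.56 and 16.30 at ZT22 and 13.71, 12.57, 15.30 and 13.07 at ZT2. The groups did not overlap, though ZT2c came within 0.1 of ZT22a. The difference was -2.31 ± 0.52 (adjusted p = 0.076), and -2.85 without ZT2c (adjusted p = 0.011). Without the high-Tff3 arrays it was -2.51 (adjusted p = 0.018), and Thrsp was the 1 gene of the list called. Fasn, the fatty acid synthase gene, read 14.77, 15.44, 14.87 and 15.00 at ZT22 and 14.03, 13.35, 14.21 and 13.53 at ZT2, again without overlap, with a difference of -1.24 ± 0.29 (adjusted p = 0.082). The fatty acid elongase gene Elovl6 differed by -1.36 (adjusted p = 0.096).

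For cholesterol synthesis and uptake, 19 genes were analysed and 0 called, with 8 lower (all features 5.42%) and 1 higher (4.57%) at an unadjusted p under 0.05 and a median of -0.41. Lss, lanosterol synthase, differed by -1.10 (adjusted p = 0.081; 0.044 without ZT22c), the mevalonate pathway gene Pmvk by -1.23 (adjusted p = 0.097; 0.0057 without ZT22b) and Sqle, squalene epoxidase, by -1.08 (adjusted p = 0.11). Angptl8, an insulin- and feeding-induced inhibitor of lipoprotein lipase activity, read 12.11, 14.39, 11.08 and 12.87 at ZT22 and 9.58, 10.23, 9.71 and 9.74 at ZT2. All ZT22 arrays exceeded all ZT2 arrays, but they spread over 3 log2 units, and the difference of -2.80 ± 0.61 had an adjusted p of 0.069; without ZT22c it was -3.31 (adjusted p = 0.025). In the list of 20 genes of fatty acid oxidation and PPARA targets 0 were called and the median was 0.028; Angptl4, a lipase inhibitor gene induced by fasting, was higher on all 4 ZT2 arrays (11.66 to 12.54 against 9.54 to 10.87), by 1.54 (adjusted p = 0.14).

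Targets of the transcription factor FOXO1 are genes that insulin holds down. Of 18 such genes, 0 were called, 5 were higher (all features 4.57%) and 1 lower (5.42%) at an unadjusted p under 0.05, and the median was 0.15. The count called was 1 without ZT22a and 2 without the high-Tff3 arrays. Igfbp1, which encodes an IGF-binding protein and is a classical insulin-repressed gene, read 9.73, 6.11, 8.84 and 7.77 at ZT22 and 11.42, 12.11, 12.49 and 10 at ZT2. The groups did not overlap, and ZT22a came closest to ZT2. The difference was 3.39 ± 0.74 with an adjusted p of 0.069; it was 3.93 (adjusted p = 0.033) without ZT22a and 3.89 (adjusted p = 0.037) without ZT2d. G6pc, glucose-6-phosphatase, was higher on every ZT2 array (16.62 to 17.30 against 15.43 to 16.26) by 1.07 (adjusted p = 0.23), and Ccng2, an atypical cyclin gene, by 1.06 (adjusted p = 0.26) with overlap. Of 13 gluconeogenic and amino acid uptake genes 0 were called, and 1 was called without the high-Tff3 arrays. Gpt2, an alanine transaminase gene, differed by -0.82 (adjusted p = 0.097) and Slc38a2, an amino acid transporter gene, by 0.78 (adjusted p = 0.20).

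Immediate early genes, which respond within minutes to hormones and stress, had the highest median of the 28 lists (0.40). Differences were positive in 18 of 22 members (all features 11324 of 22206). None was called by limma, and 6 were higher at an unadjusted p under 0.05 (all features 4.57%). Egr1 read 7.06, 6.63, 7.70 and 6.20 at ZT22 and 10.97, 12.62, 10.26 and 7.26 at ZT2. Array ZT2d stood with the ZT22 arrays while the other 3 were far above them, and the difference was 3.38 ± 0.81 (adjusted p = 0.096). Jun had the same array low: it read 8.55, 6.35, 6.75 and 6.80 at ZT22 and 9.31, 11.62, 9.99 and 6.86 at ZT2, a difference of 2.33 ± 0.66 (adjusted p = 0.18). Without ZT2d the differences were 4.39 for Egr1 (adjusted p = 0.0039) and 3.19 for Jun (adjusted p = 0.0084). Junb differed by 1.43 (adjusted p = 0.20). Glucocorticoid-responsive genes included 0 called of 17, with a median of -0.31. Tsc22d3, which encodes the glucocorticoid-induced protein GILZ, read 10.90, 11.97, 10.62 and 11.19 at ZT22 and 9.33, 8.91, 8.98 and 11.11 at ZT2, so ZT2d again lay among the ZT22 arrays. Its difference was -1.59 (adjusted p = 0.12), and -2.10 (adjusted p = 0.0066) without ZT2d.

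**Figure D4:**
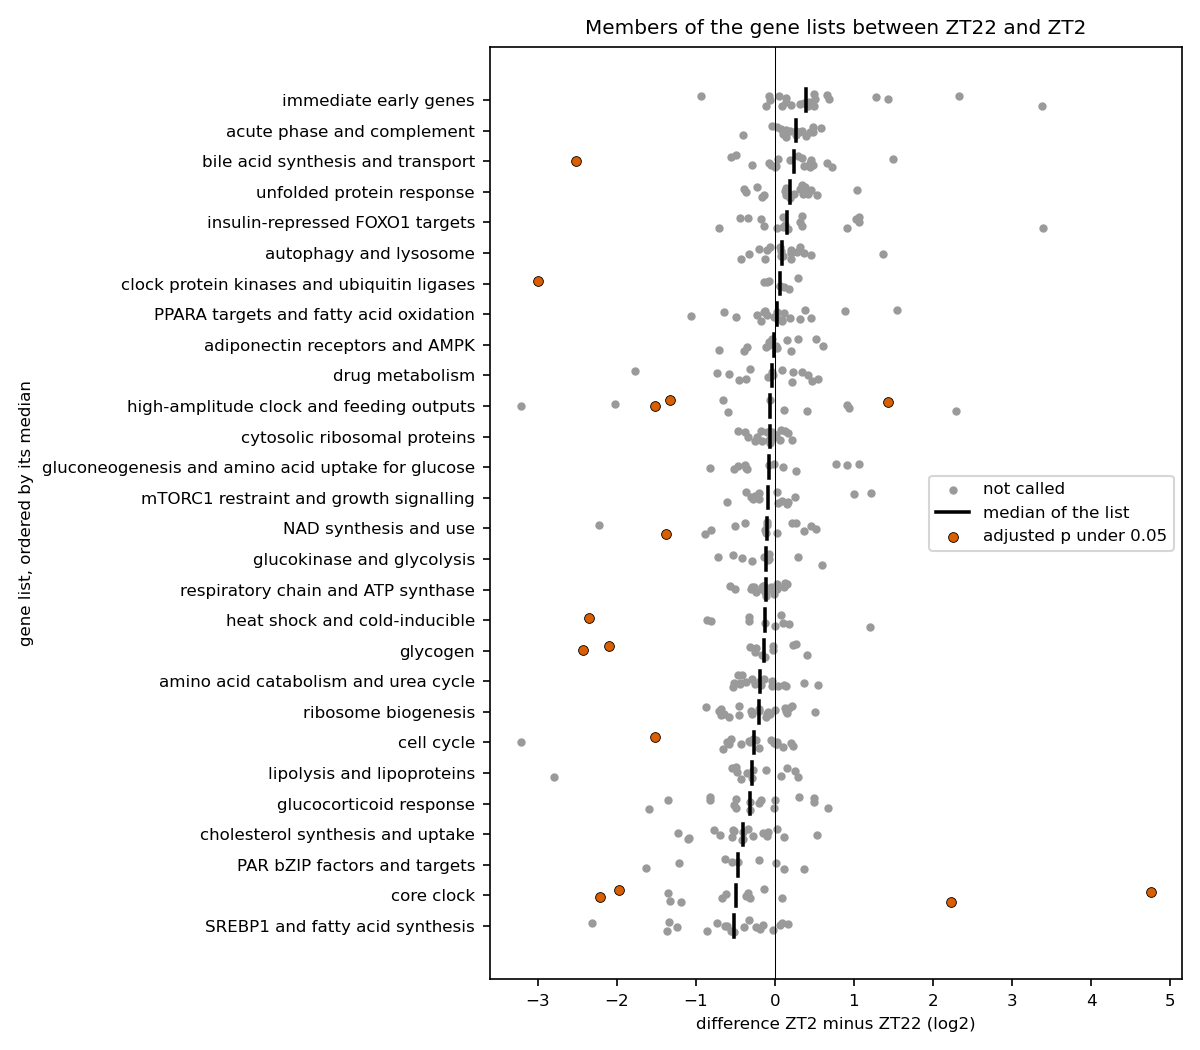
Difference ZT2 minus ZT22 (log2) of every analysed member of 28 gene lists, each list a row ordered by its median (black bar); grey points were not called and orange points had an adjusted p under 0.05. The medians run from -0.51 for fatty acid synthesis to 0.40 for immediate early genes, and the core clock holds 4 called members, the high-amplitude outputs 3 and glycogen 2.

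In the list of 13 high-amplitude outputs of clock and feeding, 1 gene rose (Slc25a47) and 2 fell (Wee1 and Tspan4), against 0.131% called over all features. Without ZT22a 2 were called, since Slc25a47 did not pass. The list names genes of large daily change and was chosen with earlier results of these data known, so its count is a description. Cdkn1a, the gene of the cell cycle inhibitor p21, is in that list and in the cell cycle list. It read 9.53, 8.91, 8.02 and 9.33 at ZT22 and 6.01, 6.44, 6.06 and 4.44 at ZT2. The groups were separated by over 1 log2 unit, but Cdkn1a also ranged from 3.24 to 9.02 on the arrays of the other 4 times, and the difference of -3.21 ± 0.76 had an adjusted p of 0.095. It passed without the high-Tff3 arrays (-3.02, adjusted p = 0.00075), with arrayWeights (-3.05, adjusted p = 0.048) and when the compared arrays were fitted alone. Slc25a30, a mitochondrial carrier gene, was on average 2.29 higher at ZT2 (adjusted p = 0.14) with ZT2d low (8.48), and the difference without ZT2d was 3.09 (adjusted p = 0.0039). Of 20 cell cycle genes Wee1 was the 1 called (all features 0.131%), and 2 were called without the high-Tff3 arrays.

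Among the PAR bZIP factors and targets, transcription factors such as HLF and the detoxification genes they drive, 0 of 9 were called and the median was -0.47. Cyp2a5, a cytochrome P450 gene, was lower on all ZT2 arrays (16.34 to 17.40 against 17.45 to 18.99), with a difference of -1.21 (adjusted p = 0.079; 0.044 without ZT2d and 0.048 without ZT22b); its near-identical neighbour Cyp2a4 differed by -1.77 (adjusted p = 0.14), and their signals may not be fully separate. Gabarapl1, an autophagosome gene, read 12.94, 11.87, 13.15 and 13.26 at ZT22 and 14.31, 13.79, 13.73 and 14.88 at ZT2, higher by 1.37 without overlap (adjusted p = 0.076). Of the 18 genes in the list for autophagy and lysosomes, 0 passed. Of 23 ribosome biogenesis genes 0 were called, 7 were lower (all features 5.42%) and 1 higher (4.57%) at an unadjusted p under 0.05, and the median was -0.20; Nop2, an rRNA methyltransferase gene, differed by -0.87 (adjusted p = 0.11). The cytosolic ribosomal proteins (21 genes, median -0.055), the respiratory chain (23 genes, median -0.11), the unfolded protein response (21 genes, median 0.20), acute phase and complement (19 genes, median 0.27), glycolysis (10 genes, median -0.11), the urea cycle and amino acid catabolism (19 genes, median -0.19), drug metabolism (17 genes, median -0.037), growth signalling (16 genes, median -0.082), lipoproteins (13 genes, median -0.28) and adiponectin receptors with AMPK (14 genes, median -0.013) held 0 called genes. Among these lists, 17 of 19 acute phase and complement genes had higher means at ZT2 (all features 11324 of 22206). For 4 of the 19 all ZT2 arrays lay above the ZT22 arrays (all features 2.47%). In the respiratory chain 18 of 23 had lower means at ZT2 (all features 10808 of 22206).

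The step across lights on was smaller than most other 4 h steps by its count of calls. In the same fit 29 features were called from ZT22 to ZT2, 87 from ZT2 to ZT6, 142 from ZT6 to ZT10, 381 from ZT10 to ZT14, 121 from ZT14 to ZT18 and 18 from ZT18 to ZT22. At an unadjusted p under 0.05 (limma) 2219 features passed across lights on, close to 2279 from ZT2 to ZT6 and 2229 from ZT14 to ZT18. From ZT6 to ZT10 2543 passed, from ZT10 to ZT14 2949 and from ZT18 to ZT22 1142. Neighbouring steps share arrays, and groups hold 3 or 4 arrays, so the counts are given side by side and were not tested against each other. The median absolute difference over all features varied less, from 0.16 for ZT18 to ZT22 to 0.20 for ZT6 to ZT10, and was 0.18 across lights on.

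The lights-off step, from ZT10 to ZT14, shares no array with the lights-on step, and the difference between the 2 steps was tested directly. It was called for 578 features (2.6%), with 223 positive and 355 negative. That count was 272 without the 5 arrays of high Tff3, which include ZT14b and ZT14d, and 359 without ZT14d or 367 without ZT14b alone. The difference contains the lights-on value by which the 29 features were called, so their count here is a description: 27 of them had a called difference between the steps, the exceptions being Wee1 (adjusted p = 0.18) and Ttc23 (adjusted p = 0.067). Across lights off itself 12 of the 29 were called (all features 1.72%), all in the direction opposite to lights on.

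**Figure D5:**
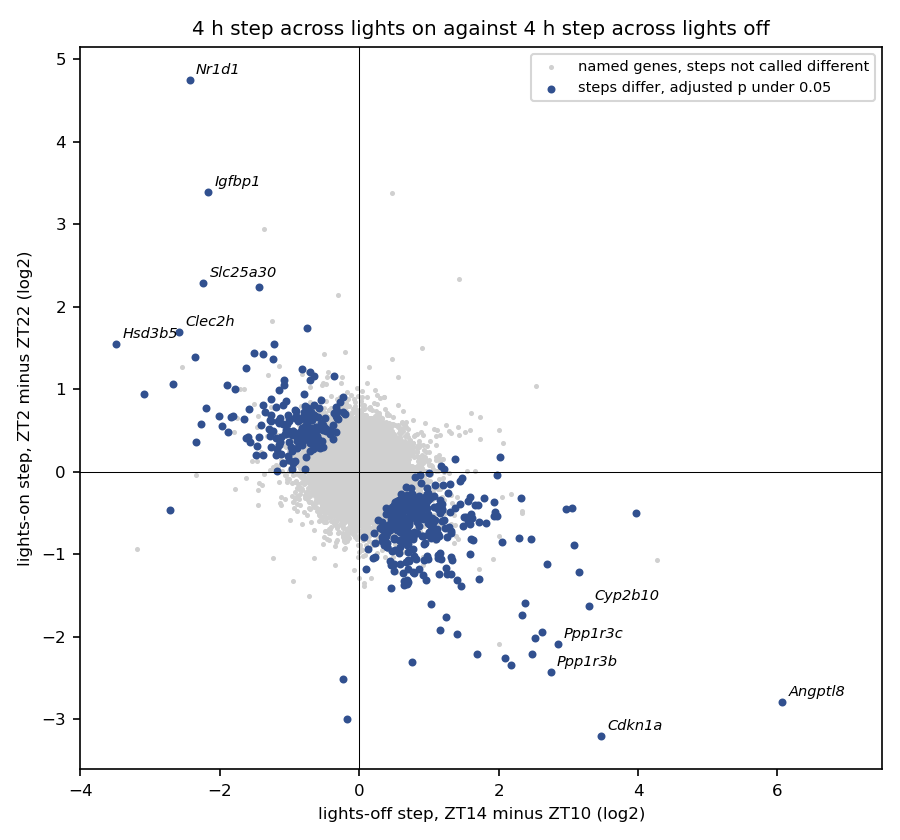
Log2 difference across lights on (ZT2 minus ZT22, vertical axis) against that across lights off (ZT14 minus ZT10, horizontal axis) for the named genes; blue points have an adjusted p under 0.05 for the difference of the 2 steps, which by its construction picks genes toward the upper left and the lower right. Angptl8 lies farthest to the lower right, at 6.07 across lights off and -2.80 across lights on, and Nr1d1 farthest up, at -2.44 and 4.75.

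Nr1d1 had the largest positive difference between the steps, 7.19 ± 0.42 (limma, adjusted p = 1.23e-10), with a rise of 4.75 across lights on and a difference of -2.44 across lights off. Angptl8 had the largest negative one, -8.87 (adjusted p = 9.43e-07), with 6.07 across lights off. Ppp1r3b (-5.18, adjusted p = 1e-07) and Ppp1r3c (-4.94, adjusted p = 1.59e-08) fell across lights on and rose across lights off by 2.75 and 2.85. Igfbp1 (5.56, adjusted p = 0.00359) and Cdkn1a (-6.69, adjusted p = 0.000876) also differed between the steps, though neither passed across lights on alone. So did Slc25a30 (4.53, adjusted p = 0.00341), the lectin-like receptor gene Clec2h (4.28, adjusted p = 0.0035; across lights on alone 1.69, adjusted p = 0.28, or 0.046 without ZT22c), the male-biased steroid dehydrogenase gene Hsd3b5 (5.03, adjusted p = 0.00983) and the drug-inducible cytochrome gene Cyp2b10 (-4.92, adjusted p = 0.0247). Without the high-Tff3 arrays the value was 2.57 (adjusted p = 0.00821) for Hsd3b5 and -4.62 (adjusted p = 0.000268) for Cdkn1a. For Igfbp1 it was larger there, 6.84 (adjusted p = 0.00179). Cyp2b10 lost its call in 10 of 27 alternatives, among them the fit without ZT22a.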

How the data were processed

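Liver RNA of male knockout mice was measured on 22 Clariom S arrays at 6 times of day, each array taken as 1 mouse; per the labels, TRIzol served for extraction, and 100 ng of each RNA was labelled with the WT Plus kit. The deposited log2 values, 1 per feature and array, were made by the authors; the sources used here name no software, background correction, normalization or build. The logarithm's base is unstated; values from 1.68 to 19.87 were read as log2, on which every fold rests. Precision is limited by the number of arrays, since arrays have no sequencing depth.

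Of 22206 features 19572 had 1 gene symbol in the platform's annotation, 2634 had none and 0 had several; 0 symbols were updated. R 4.3.3 with limma 3.58.1 and data.table (version 1.17.8) were used. A model of 6 time means on all 22 arrays (lmFit, eBayes, 16 residual degrees of freedom, no filter) gave ZT2 minus ZT22 and its difference from ZT14 minus ZT10, with Benjamini-Hochberg adjustment over all features and a threshold of 0.05, past which a feature is called changed. Errors are limma's SE. The fit was tested on simulated data.

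The comparison, the 28 pathway and 10 marker lists and the rule for named genes were chosen with earlier results of these data known. The rule took the 12 largest non-overlapping called changes in each direction, every core clock gene, at most 3 genes per other list by lowest adjusted p, the 5 largest step differences in each direction, Adipoq and Tff3. It left out predicted genes. Genes with several features used the brightest.

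Alternatives were quantile normalization, centring, a filter on dim features, eBayes with trend and robust prior, arrayWeights, the letter as a block, the compared arrays alone, high-Tff3 arrays left out, ranks, a threshold of 0.01, a 1.5-fold minimum and each array left out. Arrays outside ZT2, ZT10, ZT14 and ZT22 served the shared spread, the daily means and the counts of the other 4 h steps.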

Additional observations from a re-analysis of the deposited data

Results flagged for a closer look

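Among the named genes, 13 of 222 groups of 4 arrays (5.86%) had 1 array far from the other 3 by Dixon's criterion, where chance gives about 5%. At ZT2 array ZT2c was high for Arntl (10.77), Angptl4 (12.54) and Ppara (12.25), the fatty acid receptor gene, and low for the ribosomal protein gene Rps16 (12.24). Array ZT2d was low for Igfals (9.74), a carrier of circulating IGF, and for Hsd3b5 (15.83). At ZT22 array ZT22a was low for Usp2 (6.47) and high for the methionine cycle genes Ahcy (18.09) and Mat1a (18.37) and for Tff3 (11.42). Array ZT22b was low for Per3 (5.73) and for the stress factor gene Xbp1 (13.17). Array ZT22c was high for Cyp39a1 (13.80).

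The lights-on and lights-off steps differed (limma, adjusted p under 0.05) for the 10 genes that the rule picked for it. The difference on the log2 scale was 7.19 for Nr1d1, 5.56 for Igfbp1, 5.03 for Hsd3b5, 4.53 for Slc25a30 and 4.28 for Clec2h. It was -8.87 for Angptl8, -6.69 for Cdkn1a, -5.18 for Ppp1r3b, -4.94 for Ppp1r3c and -4.92 for Cyp2b10.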

How the results depend on the processing

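No value of a called gene reversed under any alternative run, and 7 of 27 named genes were called in all of them (Nr1d1, Nr1d2, Hspb1, Per2, Cry1, Acot3 and Wee1). Against 29 features (5 higher, 24 lower), 68 (14 and 54) were called among features above the median level, where fewer were tested, 50 (10 and 40) with a trend and robust prior, 64 (18 and 46) with arrayWeights, 17 (3 and 14) from the compared arrays alone, 44 (15 higher) without the high-Tff3 arrays, 15 (11 lower) on ranks and 14 (3 and 11) at a threshold of 0.01; the cause was not tested. Quantile normalization gave 25 (5 and 20) and centring 25 (4 and 21). The difference between the steps, 578 features, became 272 without the high-Tff3 arrays, 299 on ranks and 184 at 0.01. With one array left out, features called ranged from 15 to 33, those higher from 3 to 11, those lower from 11 to 22, and those with a step difference from 359 to 784. The replicate letters are shared by the times but do not pair arrays: deviations of same-lettered arrays correlated from -0.099 to 0.031, and 0 of 8 arrays correlated best with its own letter. With the replicate block 21 features were called, 6 higher and 15 lower, and 481 for the steps.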
